A study of Mus musculus with 28 samples.

Results

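The type I interferon antiviral genes are 38 mouse genes listed by symbol, which code for sensors of viral RNA and DNA, enzymes and blocking proteins that cells make in answer to type I interferon. A listed gene was followed if the array had a probe for its symbol or for an older name and the brightest such probe was well above background on 3 or more arrays. This left 36 of the 38, out of 22448 genes tested in all, and Dtx3l and Xaf1 were matched to no probe. All 36 were well above background on all 28 arrays and none was saturated.

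Macrophages were grown from the marrow of C57BL6/J mice, 8 to 12 weeks of age, in human recombinant CSF1 (200 ng/ml), the growth factor of macrophages. The cells of several animals were pooled before culture, and the labels name 2 males and 1 female. From day 7 the cells were left unprimed or were primed for 18 h with IL-4 (10 ng/ml), a cytokine of type 2 immunity, or with IFN-γ (100 U/ml), a cytokine that activates macrophages against microbes. Each of these states was measured with and without LPS (10 ng/ml), a bacterial cell wall component, during the last 4 h. The 28 single-colour arrays fall into untreated (7 arrays), LPS (7), IL-4 (4), IL-4 with LPS (4), IFN-γ (3) and IFN-γ with LPS (3). The study asked how IL-4 priming bears on the transcriptional response to LPS through its receptor TLR4, and the IFN-γ groups allow the same question for a second priming cytokine.

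LPS binds TLR4, and a branch of the TLR4 pathway through the adaptors Ticam2 and Ticam1 and the kinase Tbk1 activates Irf3, which turns on interferon beta (Ifnb1). Secreted interferon beta binds Ifnar1 and Ifnar2 on the same and neighbouring cells, and a complex that includes Stat2 and Irf9 then binds an element called ISRE in front of the antiviral genes. IFN-γ acts through its own receptor and mainly through a different element, GAS, though a number of antiviral genes answer to both kinds of interferon. IL-4 acts through Stat6.

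RefSeq promoters of build GRCm38.p6, which run from 250 bases before to 50 bases after a gene's start, were held for 26 of the 36 members. The core of an ISRE, GAAA, then 2 bases of any kind, then GAAA, was searched on both strands. It stood in the promoters of 13 of the 26 members (50%), against 3.99% of 27025 genes and 3.44% of 32851 promoters. In 9 of the 13 a match lay wholly before the start, and in 4 it did not. The other 13, Cmpk2 and Oasl1 among them, did not hold these letters in this window. The GAS letters, TTC, then 3 bases of any kind, then GAA, which read the same on both strands, stood in 7 of the 26 (26.9%), against 9.55% of genes and 8.3% of promoters. The stretches below are those of 7 members with the ISRE letters before the start, and they are shown as examples of where the letters lie. No link between the letters and the levels below was tested. Each is written 5′ to 3′ on the strand of its gene, with the matches to the ISRE letters, or to their complement, TTTC and TTTC with 2 bases between, in capitals.
Ifit1: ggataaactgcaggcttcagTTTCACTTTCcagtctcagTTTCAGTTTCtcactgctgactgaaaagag
Ifit3: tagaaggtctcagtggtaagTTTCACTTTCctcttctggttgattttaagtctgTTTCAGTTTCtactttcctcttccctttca
Rsad2: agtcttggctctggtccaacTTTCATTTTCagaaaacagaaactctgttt
Isg15: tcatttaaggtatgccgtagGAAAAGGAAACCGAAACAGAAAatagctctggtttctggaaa
Oas3: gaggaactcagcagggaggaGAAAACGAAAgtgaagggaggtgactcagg
Oas1a: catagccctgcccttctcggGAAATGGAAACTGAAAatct
Bst2: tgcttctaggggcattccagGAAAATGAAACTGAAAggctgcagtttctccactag

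The Ifit1 stretch is chr19:34640765-34640833 and the Ifit3 stretch chr19:34583353-34583436, both on the plus strand, with 2 matches each. The other 5 lie on the minus strand, with Rsad2 at chr12:26456543-26456592, Isg15 at chr4:156200855-156200916, Oas3 at chr5:120777705-120777754, Oas1a at chr5:120907526-120907565 and Bst2 at chr8:71537567-71537622. The Isg15 run holds 3 overlapping matches, those of Oas1a and Bst2 hold 2 overlapping matches each, and Rsad2 and Oas3 hold 1. In Bst2 a match to the GAS letters overlaps the first ISRE match. A match is a likeness of letters and no measured binding.

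The arrays' 75th percentiles of signal were 582.4 to 2113 intensity units, and 60% to 78.6% of their probes exceeded background clearly. Across genes, which are no independent replicates, correlations within groups were 0.94 to 0.991. The macrophage markers Csf1r, Adgre1, Cd68, Itgam, Mertk, Fcgr1, Lyz2 and Cd14 were well above background on all 28 arrays. Retnla, a gene that IL-4 induces in macrophages, lay between 7.28 and 8.31 on the log2 scale on all arrays labelled IL-4, with or without LPS. It was at or below -6.6 on all others, so the scanner files fit their labels as to IL-4. Retnla cannot check the labels of LPS and IFN-γ. Of the value table deposited beside the scanner files, 13 of 28 columns were best matched by a scanner file of another group, and that table was not used. The arrays lie on 10 slides. Experiment letters name replicates, but arrays of untreated and LPS cells with 1 letter did not deviate together, so no pairing by letter is assumed between these groups.

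A level is the log2 of a gene's signal minus the log2 of the 75th percentile of the array, and it is comparable between arrays for 1 gene but not between genes. The members moved as a block across the groups. The median over the 36 members of the difference from the untreated mean was used to describe each array. It ran from -0.33 to 0.24 on the 7 untreated arrays and from 1.75 to 2.37 on the 7 LPS arrays. On the IL-4 arrays it was -1.4, -1.2, -1.58 and -1.43, below all untreated arrays. On the IFN-γ arrays it was 1.06, 1.1 and 1.37, between the untreated and the LPS arrays. After LPS it was 1.55, 1.53, 1.98 and 1.34 in IL-4 primed cells and 1.65, 1.64 and 1.69 in IFN-γ primed cells, so the 3 LPS groups lay close together. The IL-4 group had the lowest mean of the 6 groups for all 36 members. The highest mean was in the LPS group for 24 members, in IFN-γ with LPS for 11 and in IL-4 with LPS for 1. In bulk RNA, fewer cells making a transcript and less transcript per cell cannot be told apart.

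**Figure D1:**
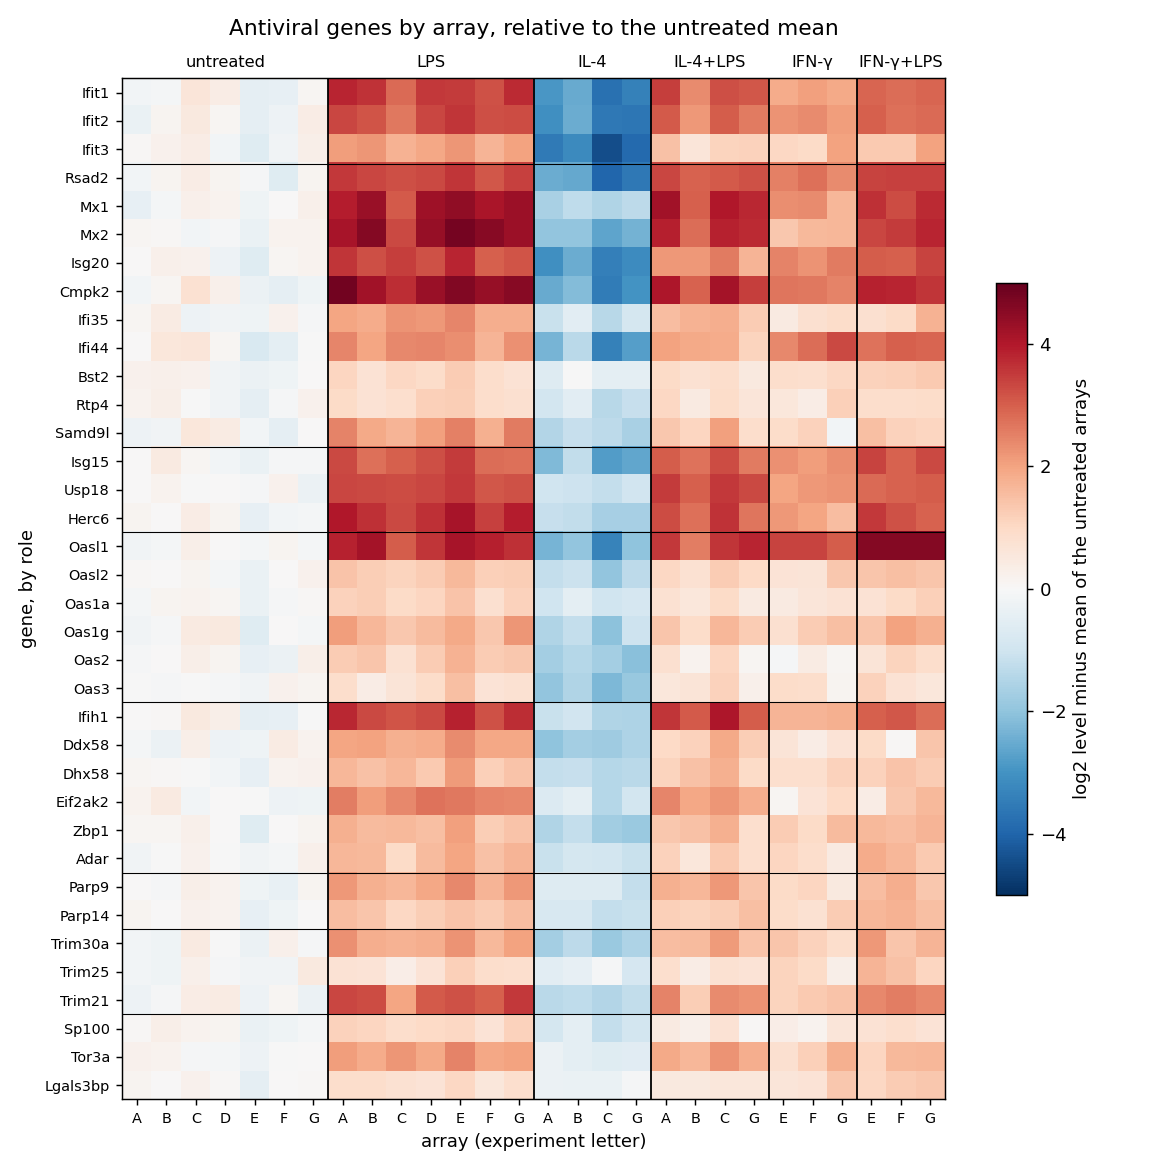
Colour gives the log2 level of each of the 36 members (rows, ordered by role) on each of the 28 arrays (columns, by experiment letter within group) minus the mean of the 7 untreated arrays. The IL-4 arrays are below the untreated mean for all members, and all LPS arrays, primed or not, are above it.

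Changes are log2 fold changes ± standard error from limma with all 28 arrays in 1 model, and a gene is called where its Benjamini-Hochberg adjusted p over all 22448 genes is under 0.05. LPS alone raised all 36 members (35 fitted higher under quantile normalization, where Lgals3bp was at -0.03), where 42.2% of all genes were called, 20.8% higher and 21.4% lower. The members' median change was 2.01 and that of all genes 0.06. IL-4 alone lowered 32 of 36, where 11.1% of all genes were called, 5.68% higher and 5.43% lower, with medians of -1.4 and 0.01. IFN-γ alone raised 31 of 36, where 25.6% were called, 12.6% higher and 13.1% lower, with medians of 1.16 and -0.29. In IL-4 primed cells LPS raised all 36, where 31% were called, 14.9% higher and 16.1% lower, with medians of 2.96 and 0.14. In IFN-γ primed cells LPS raised 12 of 36, where 11.7% were called, 5.57% higher and 6.14% lower, with medians of 0.62 and 0.14.

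The IFIT proteins bind viral RNA that lacks the marks of the cell's own cap, and all 3 members were lowest with IL-4 and highest with LPS. Ifit1 lay between 2.67 and 3.71 on the untreated arrays (median 3.04) and between 5.96 and 6.91 on the LPS arrays (median 6.64). Its level on the IL-4 arrays was 0.22, 0.61, -0.62 and -0.25, and 6.57, 5.48, 6.36 and 6.21 with LPS. On the IFN-γ arrays it was 4.98, 5.17 and 5.02, and 6.04, 5.91 and 6.03 with LPS. The untreated, IL-4 and IFN-γ arrays of Ifit1 did not overlap, while with LPS the arrays of the 3 states did. Ifit1 rose 11-fold with LPS (3.46 ± 0.2, limma adjusted p = 4.73e-13), fell 8.73-fold with IL-4 alone (-3.13 ± 0.24, adjusted p = 8.25e-10) and rose 71.6-fold with LPS after IL-4 (6.16 ± 0.27, adjusted p = 5.07e-15). Ifit3 had the smallest LPS change of the 3, 1.98 ± 0.21, and the largest fall with IL-4 of all members, -3.77 ± 0.24 (adjusted p = 3.55e-11). Its IL-4 arrays stood at 2.28, 2.63, 1.39 and 1.94, where the untreated arrays ran from 5.21 to 6.22. Ifit2 changed by 3.22 ± 0.19 with LPS and by -3.18 ± 0.22 with IL-4.

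Rsad2 codes for viperin, an enzyme that makes a nucleotide that ends viral RNA chains, and Cmpk2, its neighbour in the genome, for a nucleotide kinase. Rsad2 ran from 4.31 to 5.27 on the untreated arrays (median 5.03) and from 8.02 to 8.46 on the LPS arrays (median 8.24). It stood at 2.4, 2.35, 0.94 and 1.33 with IL-4, and at 8.23, 7.86, 7.97 and 8.08 with IL-4 and LPS. With IFN-γ it stood at 7.42, 7.64 and 7.28, and at 8.26, 8.32 and 8.3 with IFN-γ and LPS. With LPS the arrays of both primed states overlapped those of unprimed cells, while before LPS the IL-4 and IFN-γ means of Rsad2 lay 5.69 ± 0.26 apart, the widest gap of all members (limma adjusted p = 3.13e-14). Cmpk2 had the largest LPS change of the members, 4.37 ± 0.22 or 20.6-fold in unprimed and 6.45 ± 0.29 or 87.5-fold in IL-4 primed cells, each gene taken by its brightest probe. The fitted LPS changes of the other Rsad2 probes were 4.77 and 4.55, against 3.36 for its brightest. The untreated arrays of Cmpk2 ran from 3.09 to 4.3 and its LPS arrays from 7.22 to 8.36, and the IL-4 arrays stood at 1.02, 1.37, 0.05 and 0.56.

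The Mx proteins are dynamin-like GTPases that trap viral nucleocapsids. Mx1 ran from 1.95 to 2.63 on the untreated arrays (median 2.37) and from 5.42 to 6.79 on the LPS arrays (median 6.6). It stood at 0.73, 1.08, 0.87 and 1.05 with IL-4, and at 6.57, 5.36, 6.38 and 6.11 with IL-4 and LPS. With IFN-γ it stood at 4.7, 4.74 and 4.03, and at 6.03, 5.61 and 6.07 with LPS as well. All Mx1 arrays without LPS lay below all those with LPS. Mx1 rose with LPS in all 3 states, by 4.05 ± 0.2 in unprimed, 5.17 ± 0.27 in IL-4 primed and 1.41 ± 0.31 in IFN-γ primed cells (limma adjusted p = 2.15e-14, 9.24e-14 and 0.00272). Mx2 rose by 4.28 ± 0.2, 5.81 ± 0.26 and 2.02 ± 0.3, the last being the largest LPS change of a member after IFN-γ.

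Isg20, an exonuclease of RNA, kept a trace of the priming after LPS. It ran from 2.7 to 3.55 on the untreated arrays (median 3.4) and from 6.27 to 7.11 on the LPS arrays (median 6.52). With IL-4 it stood at 0.22, 0.8, -0.12 and 0.14, and with IL-4 and LPS at 5.44, 5.44, 5.88 and 4.97, below every LPS array. With IFN-γ it stood at 5.78, 5.53 and 5.89, and with IFN-γ and LPS at 6.31, 6.27 and 6.67, overlapping the LPS arrays. Isg20 was 2.29-fold lower in IL-4 with LPS than in LPS alone (-1.2 ± 0.2, limma adjusted p = 0.000206). Bst2, or tetherin, which holds budding virus at the cell surface, moved little by comparison. Its arrays ran from 6.83 to 7.37 untreated and from 7.83 to 8.39 with LPS, a change of 0.95 ± 0.12 (adjusted p = 4.82e-07), and its IL-4 arrays at 6.49, 7.08, 6.64 and 6.63 overlapped the untreated ones. Rtp4, Samd9l, Ifi44 and Ifi35, further interferon-induced genes, rose with LPS by 0.95 ± 0.15, 2.15 ± 0.22, 2.23 ± 0.25 and 2.04 ± 0.17. Ifi44 had the largest rise of this set with IFN-γ, 2.84 ± 0.33 or 7.14-fold, and the fitted changes of its other probe were 1.9 there and 3.46 with LPS.

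Isg15 codes for a ubiquitin-like protein, Herc6 for the ligase that joins it to other proteins in the mouse, and Usp18 for the protease that removes it and that also damps the type I receptor. Isg15 ran from 4.46 to 5.22 on the untreated arrays (median 4.74) and from 7.52 to 8.29 on the LPS arrays (median 7.78). With IL-4 it stood at 2.59, 3.56, 2 and 2.19, and with IL-4 and LPS at 7.8, 7.49, 8.04 and 7.38. With IFN-γ it stood at 7.07, 6.86 and 7.09, and with IFN-γ and LPS at 8.16, 7.75 and 8.08. With LPS the Isg15 arrays of the 3 states overlapped. Isg15 fell 4.59-fold with IL-4 (-2.2 ± 0.22, limma adjusted p = 1.07e-07) and rose 4.67-fold with IFN-γ (2.22 ± 0.25, adjusted p = 2.05e-07). Usp18 had the smallest standard error of the members in the LPS comparison, 0.1. Its untreated arrays ran from 3.64 to 4.14 (median 3.94) and its LPS arrays from 7.04 to 7.49 (median 7.25). With IL-4 it stood at 2.94, 2.91, 2.74 and 2.98, with IL-4 and LPS at 7.44, 6.94, 7.46 and 7.22, with IFN-γ at 5.93, 6.09 and 6.18, and with both at 6.77, 6.88 and 6.97. Usp18 in IL-4 with LPS differed from LPS alone by 0.02 ± 0.12, which did not pass the test. Herc6, named on the array by its synonym Herc5, ran from 0.39 to 1.16 on the untreated arrays (median 0.81) and from 4.11 to 4.91 on the LPS arrays (median 4.44). Its level was -0.34, -0.45, -0.86 and -0.86 on the IL-4 arrays and 4.04, 3.54, 4.4 and 3.48 with IL-4 and LPS, and it was 2.97, 2.75 and 2.32 with IFN-γ and 4.33, 3.96 and 3.75 with both. The Herc6 arrays of the 3 states were apart before LPS and overlapped with it. Herc6 rose by 3.73 ± 0.17, 4.49 ± 0.23 and 1.33 ± 0.26 with LPS in unprimed, IL-4 primed and IFN-γ primed cells.

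The OAS enzymes answer double-stranded RNA by making a short RNA messenger that switches on RNase L, and Oasl1 is a relative that holds back translation of Irf7. Oasl1 ran from 3.32 to 3.77 on the untreated arrays (median 3.39) and from 6.52 to 7.65 on the LPS arrays (median 7.32). With IL-4 it stood at 1.14, 1.5, 0.12 and 1.45, and with IL-4 and LPS at 7, 6.04, 7.04 and 7.27. With IFN-γ it stood at 6.84, 6.84 and 6.49, and with IFN-γ and LPS at 8.08, 8.06 and 8.05, above every array of the other groups. Oasl1 had the largest rise of all members with IFN-γ alone, 3.24 ± 0.27 or 9.48-fold (limma adjusted p = 1.71e-09), and was 1.78-fold higher in IFN-γ with LPS than in LPS alone (0.83 ± 0.27, adjusted p = 0.0266). Oas3 had the smallest LPS change of the 6, with untreated arrays from 2.36 to 2.72, LPS arrays from 2.87 to 4.03 and a change of 0.83 ± 0.17 (adjusted p = 0.00025). Its IL-4 arrays stood far lower, at 0.53, 1, 0.27 and 0.62, a fall of 3.76-fold (-1.91 ± 0.2, adjusted p = 1.57e-07). The other Oas3 probe changed by -1.08 with IL-4. Oas2 changed by 0.15 ± 0.22 with IFN-γ alone, which did not pass the test, while it rose by 1.29 ± 0.17 with LPS. Oas1a, Oas1g and Oasl2 rose with LPS by 1.12 ± 0.12, 1.73 ± 0.2 and 1.29 ± 0.14. Oas1a and Oas1g are near-identical copies, and their probes may share signal.

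Ifih1, Ddx58 and Dhx58 code for MDA5, RIG-I and LGP2, which read viral RNA in the cytoplasm. Ifih1 ran from 2.64 to 3.55 on the untreated arrays (median 3.08) and from 6.21 to 6.9 on the LPS arrays (median 6.37). With IL-4 it stood at 1.95, 2.11, 1.57 and 1.54, and with IL-4 and LPS at 6.66, 6.12, 7.1 and 6.08. With IFN-γ it stood at 4.77, 4.79 and 4.83, and with IFN-γ and LPS at 6.07, 6.19 and 5.85. Before LPS the Ifih1 arrays of the 3 states did not overlap, and with LPS those of IL-4 primed cells overlapped those of unprimed cells and those of IFN-γ primed cells lay just below them. Its LPS changes were 3.46 ± 0.17, 4.7 ± 0.23 and 1.24 ± 0.27 in unprimed, IL-4 primed and IFN-γ primed cells (limma adjusted p = 2.76e-14, 4.18e-14 and 0.00242). Ddx58 ran from 2.04 to 2.74 untreated (median 2.23) and from 4.13 to 4.69 with LPS (median 4.28). It stood at 0.32, 0.65, 0.56 and 0.81 with IL-4 and at 3.36, 3.51, 4.25 and 3.58 with IL-4 and LPS. Its IFN-γ arrays stood at 2.98, 2.7 and 3.04, and those with IFN-γ and LPS at 3.3, 2.4 and 3.73, below every LPS array. Ddx58 with IFN-γ alone changed by 0.56 ± 0.23 and with LPS after IFN-γ by 0.24 ± 0.27, and neither passed the test. Dhx58, with the smallest LPS change of the sensors, rose by 1.55 ± 0.14, from 3.42 to 4.04 on the untreated and 5.03 to 5.96 on the LPS arrays.

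Zbp1 reads left-handed nucleic acid, Eif2ak2 is the kinase PKR, which stops translation when it binds double-stranded RNA, and Adar edits double-stranded RNA. Adar ran from 2.5 to 2.93 untreated (median 2.64) and from 3.61 to 4.65 with LPS (median 4.28). It stood at 1.57, 1.78, 1.77 and 1.56 with IL-4, at 3.83, 3.22, 3.99 and 3.51 with IL-4 and LPS, at 3.75, 3.55 and 3.13 with IFN-γ, and at 4.54, 4.31 and 3.97 with both. The IL-4 arrays of Adar lay below and the IFN-γ arrays above the untreated range, with changes of -1 ± 0.18 and 0.81 ± 0.19 (limma adjusted p = 0.000258 and 0.00265). Eif2ak2 ended at different levels after LPS. Its LPS arrays ran from 4.25 to 4.86, its IL-4 with LPS arrays stood at 4.59, 4.09, 4.38 and 3.96, and its IFN-γ with LPS arrays at 2.53, 3.51 and 3.77, below all of these. Eif2ak2 in IFN-γ with LPS was 2.55-fold lower than in LPS alone (-1.35 ± 0.24, adjusted p = 0.000221). Zbp1 rose by 1.6 ± 0.16 with LPS and by 1.27 ± 0.21 with IFN-γ, and fell by 1.58 on the log2 scale with IL-4.

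Parp9 and Parp14 belong to the family of ADP-ribose transferases. Parp9 ran from 2.48 to 3.16 untreated and from 4.52 to 5.25 with LPS, a rise of 1.97 ± 0.15, and Parp14 from 5.9 to 6.51 and from 7.34 to 7.84, a rise of 1.35 ± 0.12. Both fell with IL-4 and rose with IFN-γ and with LPS in all 3 states. The TRIM members are ubiquitin ligases, of which Trim25 activates RIG-I and Trim21 binds antibody inside the cell. Trim21 ran from 1.42 to 2.15 untreated and from 3.72 to 5.28 with LPS, a rise of 3.05 ± 0.2 (limma adjusted p = 5.08e-12). Trim25 had the smallest LPS change of all members, 0.77 ± 0.16 (adjusted p = 0.000354), and its LPS arrays, from 5.2 to 6.06, overlapped its untreated arrays, from 4.65 to 5.34. These values come from the brighter of its probes, and the other disagreed in size. For the other Trim25 probe the fitted change was 3.12 with LPS and 2.88 with LPS after IL-4 (1.12 for the brighter probe), with an IFN-γ interaction of -1.58 (-0.16 for the brighter). Trim30a, which restrains TLR signalling, rose by 1.94 ± 0.16 with LPS and fell by 1.6 on the log2 scale with IL-4.

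Sp100, a protein of nuclear bodies, ran from 2.79 to 3.43 untreated (median 3.19) and from 3.8 to 4.3 with LPS (median 4.16). It stood at 2.24, 2.64, 1.95 and 2.23 with IL-4, at 3.59, 3.4, 3.85 and 3.21 with IL-4 and LPS, at 3.47, 3.32 and 3.74 with IFN-γ and at 3.84, 3.98 and 3.82 with both. The IL-4 arrays of Sp100 lay below all untreated arrays, and the IFN-γ arrays overlapped them. Lgals3bp, a secreted glycoprotein that binds galectins, was the member with the narrowest span over the states before LPS. It ran from 6.48 to 7.14 untreated (median 6.99) and from 7.51 to 7.97 with LPS (median 7.79). It stood at 6.64, 6.59, 6.6 and 6.87 with IL-4, at 7.42, 7.44, 7.5 and 7.51 with IL-4 and LPS, at 7.54, 7.62 and 8.27 with IFN-γ and at 7.96, 8.22 and 8.3 with both. Lgals3bp rose by 0.8 ± 0.12 with LPS (limma adjusted p = 4.8e-06), a direction that quantile normalization turned to -0.03. Tor3a, an ATPase of the torsin family, ran from 4.82 to 5.3 untreated (median 5.07) and from 6.93 to 7.58 with LPS (median 7.1), a rise of 2.07 ± 0.15. Its level was 4.78, 4.61, 4.46 and 4.51 with IL-4 and 6.98, 6.75, 7.33 and 6.9 with IL-4 and LPS, and it was 5.88, 6.27 and 6.87 with IFN-γ and 6.16, 6.72 and 6.74 with both. The IFN-γ with LPS arrays of Tor3a overlapped those of IFN-γ alone and lay below every LPS array, while the IL-4 with LPS arrays overlapped the LPS arrays.

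**Figure D2:**
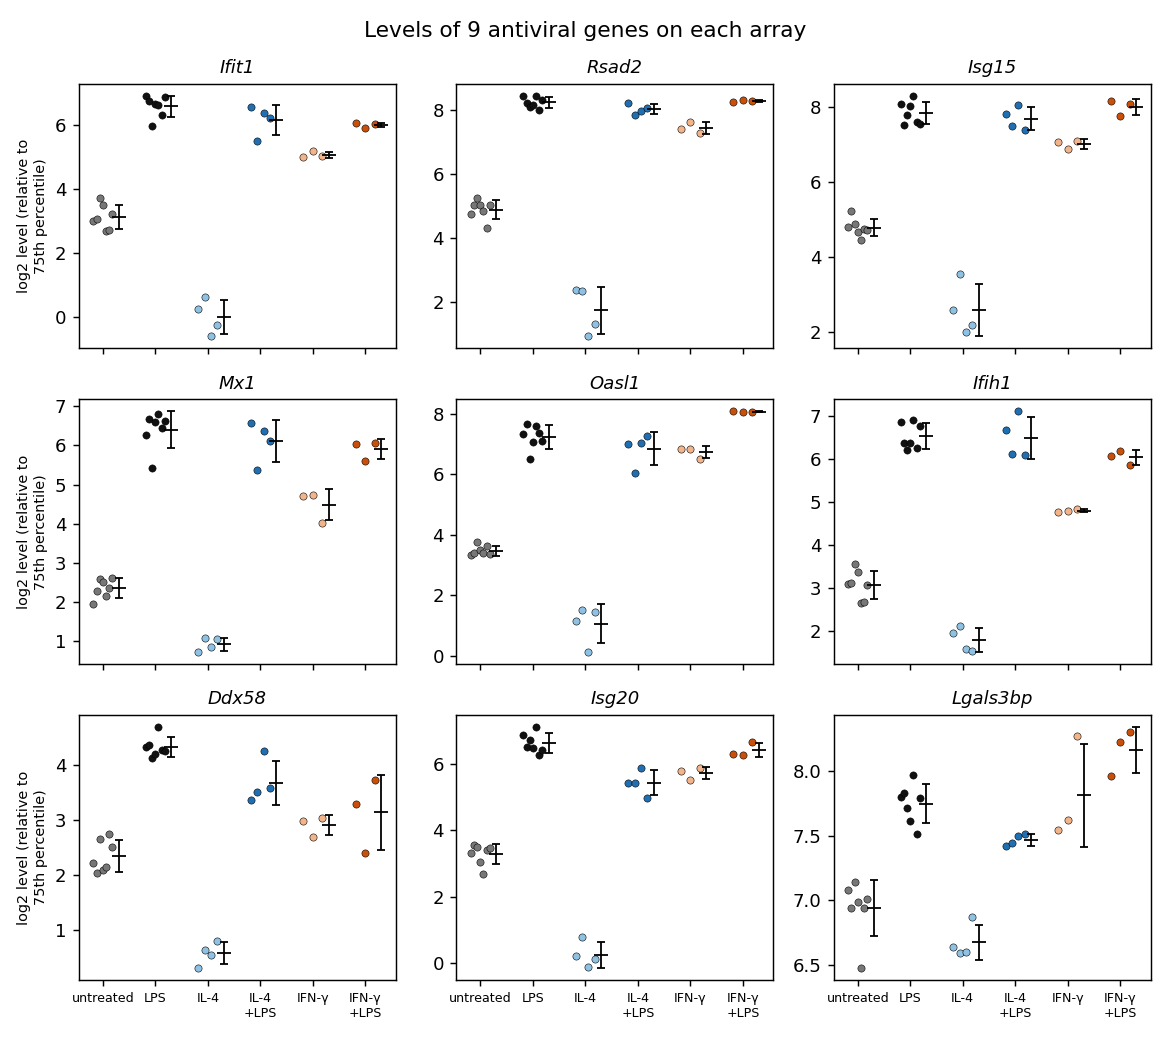
Points give the log2 level, relative to the 75th percentile of the array, of 9 members on each array of the 6 groups, with the group mean and its standard deviation as bars to the right. For Ifit1, Rsad2, Isg15, Mx1 and Ifih1 the IL-4, untreated and IFN-γ arrays form 3 separate levels and the group means with LPS lie within 0.58 of each other, while Oasl1 stays highest with IFN-γ and LPS and Isg20 lowest of the LPS groups with IL-4.

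LPS in unprimed cells raised the members 1.7-fold (Trim25) to 20.6-fold (Cmpk2). The lowest LPS array was above the highest untreated array for 35 of 36 members, and the exception was Trim25 by its brighter probe. Over all genes tested 25.2% had groups that did not overlap, in either direction. Within the 5 slides that held both groups, all 36 members were higher with LPS on each slide, with a median difference of 1.86 to 2.12. Markers of other cell types were also read. Of 5 genes marking plasmacytoid dendritic cells, which make much type I interferon, 2 were called higher and 1 lower with LPS. Their summed signal ran from 5.46 to 11.9 times the array's 75th percentile on untreated and from 13.2 to 32.6 on LPS arrays, mostly Tcf4. Of these markers, Ccr9, Tcf4, Klk1 and Runx2 were well above background on every array. Siglech, a surface marker of these cells, was so on 4 of 7 untreated and 2 of 7 LPS arrays. For stromal markers the sum went from at most 0.541 to at least 2.42, mostly Pdgfrb. The part of these cells in the members' levels was not tested.

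IL-4 alone had 32 members lower, by 1.71-fold (Parp9) to 13.7-fold (Ifit3). The other 4 were Trim25 at -0.45 ± 0.19, Bst2 at -0.41 ± 0.14, Tor3a at -0.49 ± 0.17 and Lgals3bp at -0.27 ± 0.14, with limma adjusted p of 0.148, 0.0757, 0.0661 and 0.293. The IL-4 arrays lay below all untreated arrays for 33 members, where 12.6% of all genes had groups that did not overlap. On both slides that held the groups, all 36 members were lower with IL-4, with median differences of -1.26 and -1.19. By role, all 3 IFIT, all 6 OAS, all 6 sensor and all 3 ISG15 genes fell, both PARP genes, 9 of 10 in the set of Mx, viperin and other effectors, 2 of 3 TRIM genes and 1 of 3 in the remaining set. The median change was -3.18 for the IFIT and -1.27 for the sensor genes. The sum of the plasmacytoid markers on the IL-4 arrays, 3.82 to 7.06, overlapped that of the untreated arrays. The sum of 4 dendritic cell markers was 24.3 to 48.8 with IL-4, against 2.37 to 4.95 untreated, mostly Itgax, whose change of 3.42 did not pass the test (limma adjusted p = 0.0815), and its part in the result was not tested.

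IFN-γ alone had 31 members higher, by 1.51-fold (Oas1a) to 9.48-fold (Oasl1). The other 5 were Oas2 at 0.15 ± 0.22, Sp100 at 0.37 ± 0.17, Ddx58 at 0.56 ± 0.23, Eif2ak2 at 0.59 ± 0.24 and Samd9l at 0.66 ± 0.28, with limma adjusted p of 0.627, 0.112, 0.0744, 0.0808 and 0.0898. The arrays did not overlap for 29 members, against 24.8% of all genes. On the slides that held both groups 35 and 36 members were higher, with median differences of 0.86 and 0.99. Against all genes, whose median with IFN-γ was -0.29, the members' median was 1.16. With median scaling of the arrays the median of all genes moved to 0.161, the share of all calls that were higher moved from 49.1% to 77.8%, and 35 members were called. With quantile normalization 24 were called, and Oas2 turned to -0.26.

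Set directly against each other, IL-4 had all 36 members lower than IFN-γ, where 27.6% of all genes were called, 14.7% higher and 12.9% lower. The gaps ran from 2.2-fold for Lgals3bp to 51.7-fold for Rsad2. The arrays of the 2 groups did not overlap for any member, against 34% of all genes with groups apart. All 36 were called under each scaling tried. No slide held both groups, so the difference has no value within a slide.

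**Figure D3:**
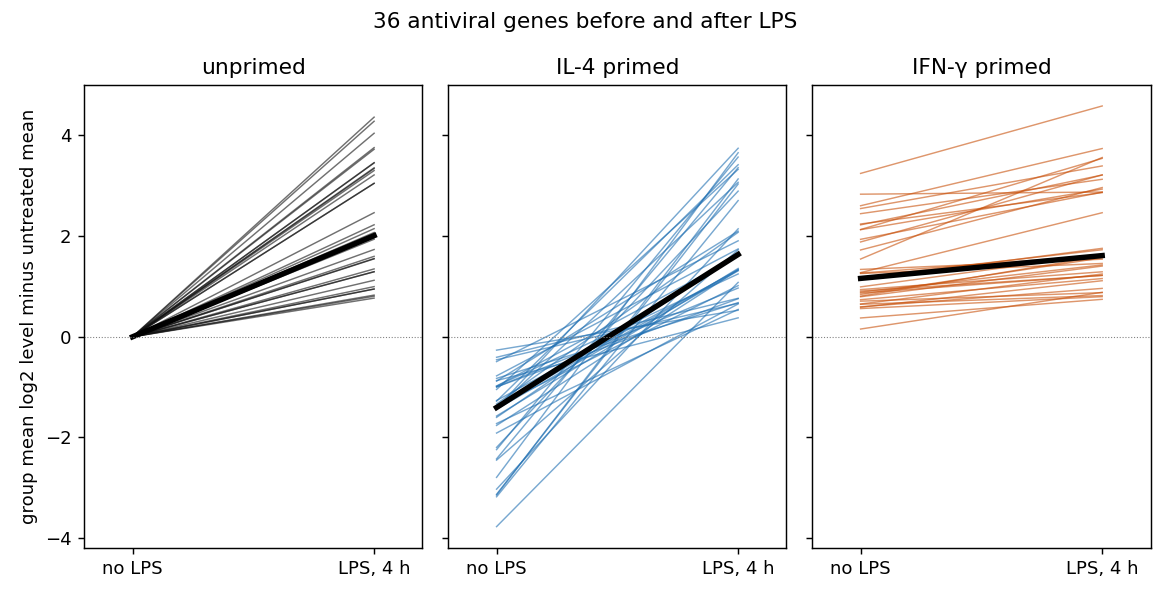
Lines join the group means of each of the 36 members without and with 4 h of LPS, as log2 level minus the untreated mean, in unprimed, IL-4 primed and IFN-γ primed cells, and the thick black line joins the medians. The lines rise from 0 in unprimed cells, rise most steeply from below 0 in IL-4 primed cells, and are flattest in IFN-γ primed cells.

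In IL-4 primed cells LPS raised the members 1.73-fold (Lgals3bp) to 87.5-fold (Cmpk2), and for all 36 every array with LPS lay above every array without, against 29.8% of all genes with groups apart. On the 4 slides that held both groups all 36 were higher, with median differences of 2.66 to 3.68. The LPS change was set against that in unprimed cells through the interaction, which is the change with LPS after priming less the change with LPS without it. It was called and above 0 for 18 of 36 members, where 1.58% of all genes were called, 0.9% above 0 and 0.677% below. The members' median interaction was 1.06. The largest were Rsad2 at 2.92 ± 0.31, Ifit3 at 2.87 ± 0.34, Ifit1 at 2.7 ± 0.34 and Ifit2 at 2.67 ± 0.32 (limma adjusted p = 3.76e-06, 1.93e-05, 3.98e-05 and 1.93e-05). The other 14 were Mx2, Isg20, Cmpk2, Ifi44, Isg15, Usp18, Oasl1, Oasl2, Oas3, Ifih1, Dhx58, Zbp1, Parp14 and Trim30a, from 0.87 to 2.09. By the other probe the interaction was 0.37 for Dhx58 (1.04 for the brightest), 0.72 for Oas3 (1.74) and 1.59 for Ifih1 (1.24). The 18 not called were Mx1 at 1.13 ± 0.33, Ddx58 at 1.12 ± 0.29 and Oas1g at 1.01 ± 0.33, and, between -0.01 and 0.98, Oas1a, Oas2, Eif2ak2, Adar, Parp9, Trim25, Trim21, Ifi35, Herc6, Bst2, Rtp4, Samd9l, Sp100, Tor3a and Lgals3bp. Under normexp background correction 5 interactions were called and under median scaling 7. The interaction is computed from the same untreated, IL-4 and LPS arrays as the comparisons above.

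In IFN-γ primed cells LPS raised 12 members, Mx2, Mx1, Oasl1, Herc6, Ifih1, Trim21, Cmpk2, Isg15, Usp18, Adar, Parp9 and Parp14, by 0.64 to 2.02. The 24 not called were Ifit1 at 0.94 ± 0.31 and Rsad2 at 0.85 ± 0.28, just short of the threshold with limma adjusted p of 0.0513 and 0.0505, and Ifit2, Ifit3, Isg20, Ifi35, Ifi44, Bst2, Rtp4, Samd9l, Oasl2, Oas1a, Oas1g, Oas2, Oas3, Ddx58, Dhx58, Eif2ak2, Zbp1, Trim30a, Trim25, Sp100, Tor3a and Lgals3bp, from 0.04 to 0.73. These values are of the brightest probes. By other probes the fitted change was 1.54 for Trim25 (0.61 for the brightest), 1.19 for Ifi44 (0.04), and 1.16 and 1.15 for Rsad2. For Ddx58 an other probe was at -0.15 (0.24 for the brightest). The arrays of the groups did not overlap for 23 members, against 25.1% of all genes with groups apart. On the 3 slides that held both groups 36, 33 and 32 members were higher, with median differences of 0.6, 0.67 and 0.78. The count of 12 went to 7 without IFN-γ with LPS array E. It was 1 under normexp background correction, 5 under quantile normalization and 2 under median scaling, and 19 with slide as a block.

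The interaction of IFN-γ with LPS was called and below 0 for 26 of 36 members, where 8.23% of all genes were called, 3.01% above 0 and 5.22% below. The members' median was -1.68. The largest were Cmpk2 at -3.23 ± 0.41, Isg20 at -2.66 ± 0.31, Mx1 at -2.63 ± 0.37 and Ifit2 at -2.59 ± 0.35 (limma adjusted p = 1.01e-05, 4.17e-06, 3.51e-05 and 2.43e-05). The 10 not called were Oasl2, Oas2, Oas3, Adar, Parp14, Trim25, Bst2, Rtp4, Sp100 and Lgals3bp, from -0.78 to -0.16, the last being Trim25 by its brighter probe. Between 22 and 24 members were called under normexp background correction, quantile normalization and median scaling.

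**Figure D4:**
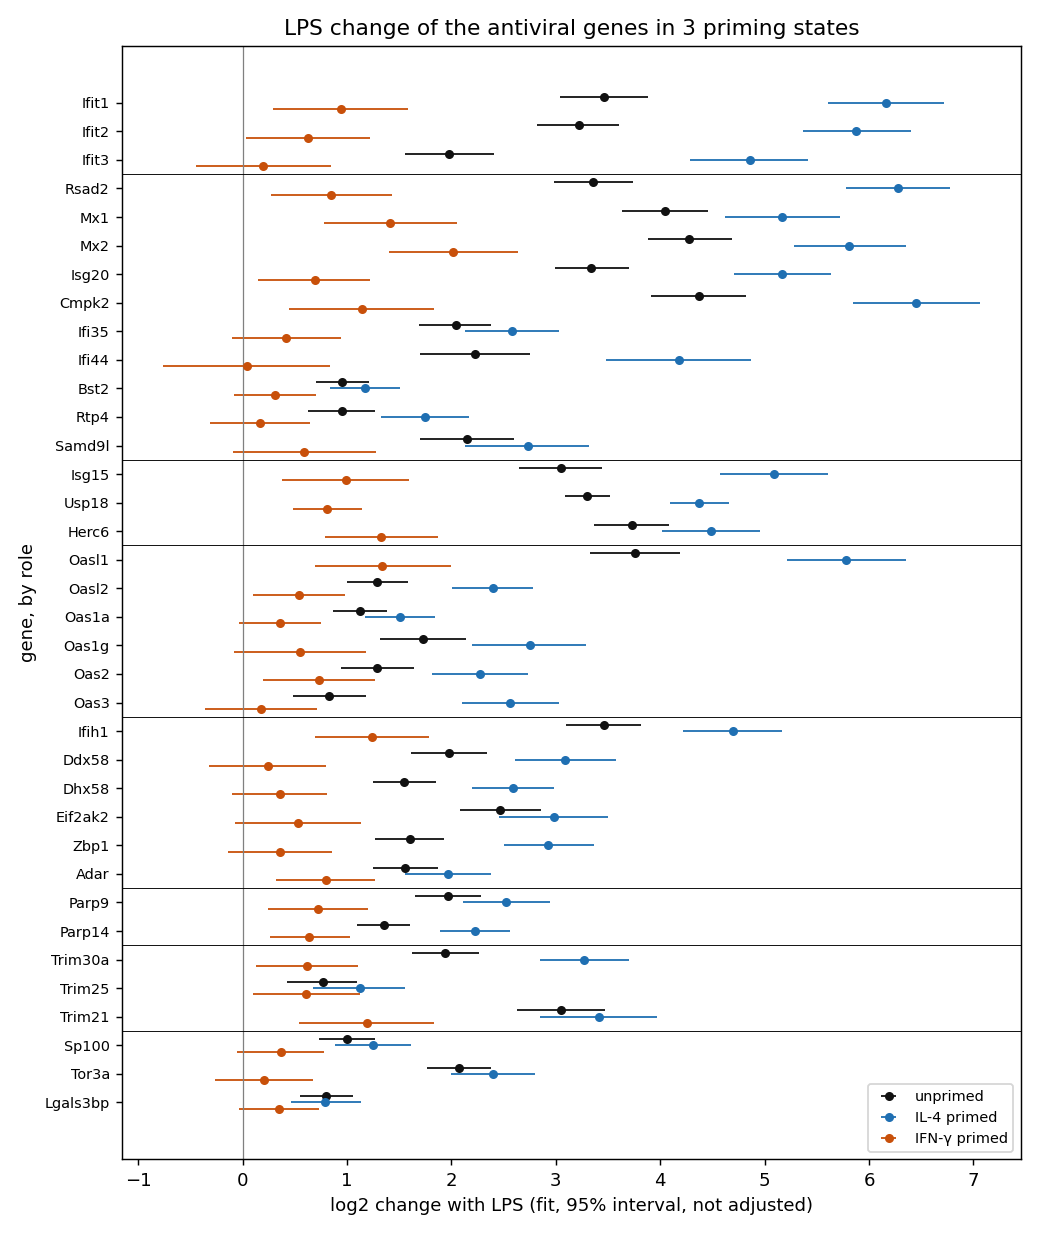
Points give the fitted log2 change with LPS of each member's brightest probe, with its 95% interval. Unprimed cells are in black, IL-4 primed cells in blue and IFN-γ primed cells in orange. For Ifit1, Rsad2 and Cmpk2 the 3 intervals stand apart in the order IFN-γ primed, unprimed, IL-4 primed, while for Trim25 and Lgals3bp they overlap.

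After LPS the groups differed less. The gap between the highest and lowest of the 3 group means was 1.14 to 5.69 per member before LPS (median 2.58) and 0.18 to 1.35 after LPS (median 0.6). It was narrower after LPS for all 36 members, against 56.1% of all genes tested, whose medians were 0.87 and 0.79. Rsad2 went from 5.69 to 0.26, Oas3 from 2.55 to 0.18 and Ifit2 from 5.42 to 0.51. Eif2ak2 narrowed least, from 1.47 to 1.35. These gaps are of the brightest probes, and other probes differed in size. The other Rsad2 probes were at -0.66 and -0.52 in IL-4 with LPS against LPS alone (-0.22 for the brightest). In IFN-γ with LPS against LPS alone they were at -0.62 and -0.68 (0.04 for the brightest). Before LPS they stood at -6.02 and -5.78 in IL-4 against IFN-γ. By its other probe, Ifit3 in IL-4 with LPS was at -1.77 against LPS alone (-0.9 for the brightest). Before LPS that probe stood at -5.83 in IL-4 against IFN-γ. For Ifi44, IL-4 with LPS against IFN-γ with LPS was -0.41 by the other probe and -1.15 by the brightest.

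IL-4 with LPS had 8 members lower than LPS alone and none higher, where 8.84% of all genes were called, 4.32% higher and 4.52% lower, and the members' median difference was -0.38. The 8 were Isg20 at -1.2 ± 0.2, Trim21 at -0.97 ± 0.24, Ifit3 at -0.9 ± 0.24, Samd9l at -0.81 ± 0.25, Oas2 at -0.75 ± 0.2, Herc6 at -0.66 ± 0.2, Sp100 at -0.62 ± 0.15 and Adar at -0.59 ± 0.18 (limma adjusted p from 0.000206 to 0.0469). The other 28 lay between -0.71 and 0.02, with Mx2 and Cmpk2 lowest at -0.71 ± 0.23 and -0.71 ± 0.26. These values are of the brightest probes. By an other probe, uncalled Ddx58 and Trim25 were at -0.9 and -0.56 (-0.65 and -0.1 for the brightest), and Oas2 was at -0.58. The arrays did not overlap for 2 members, against 6.66% of all genes. On the 4 slides that held both groups 30 to 35 members were lower. The count went to 2 without IL-4 with LPS array B, to 3 without array G of that group, and to 5 without LPS array A, E or G, and it was 1 under normexp background correction and under median scaling.

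IFN-γ with LPS had 2 members higher than LPS alone, Oasl1 at 0.83 ± 0.27 and Trim25 at 0.64 ± 0.21, and 6 lower, where 22.6% of all genes were called, 10.6% higher and 12% lower. The 6 were Eif2ak2 at -1.35 ± 0.24, Ddx58 at -1.18 ± 0.23, Samd9l at -0.9 ± 0.28, Ifi35 at -0.88 ± 0.21, Mx2 at -0.72 ± 0.25 and Tor3a at -0.61 ± 0.19 (limma adjusted p from 0.000221 to 0.0429). The median over the members, -0.26, stood beside -0.23 over all genes. The other 28 lay between -0.62 and 0.65 by their brightest probes. By the other probe Trim25 was at 0.16, and uncalled Cmpk2 and Ifih1 were at -1.39 and -1.22 (-0.62 and -0.49 for the brightest). The other probes of Ddx58 were at -1.48, -0.98 and -1.21. The share of members called, like the share with groups apart (25% of members and 18.2% of all genes), was near that of all genes. The count of 8 went to 3 without IFN-γ with LPS array E and to 4 without array F. Under median scaling 1 higher and 1 lower were called, and the share of all calls that were higher moved from 46.9% to 72.7%.

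IL-4 with LPS had 6 members lower than IFN-γ with LPS, Oasl1 at -1.23 ± 0.3, Ifi44 at -1.15 ± 0.36, Isg20 at -0.98 ± 0.24, Trim25 at -0.74 ± 0.23, Lgals3bp at -0.69 ± 0.17 and Adar at -0.64 ± 0.21 (limma adjusted p from 0.00305 to 0.0301). Eif2ak2 alone was higher, at 0.98 ± 0.27 (adjusted p = 0.00847). Of all genes 25.4% were called, 13.8% higher and 11.6% lower, and 7 of the 36 members were. The arrays of the groups did not overlap for 11 members (30.6%), 2 higher and 9 lower, against 27.1% of all genes. The other 29 lay between -0.46 and 0.53 by their brightest probes. By the other probe Ifi44 was at -0.41 and uncalled Ifih1 at 1.17 (0.46 for the brightest), while Isg20 and Trim25 were at -0.85 and -0.72. The count went to 4 without IFN-γ with LPS array E or F, and was 1 under normexp background correction, where the member called was higher with IL-4. No slide held both groups.

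Genes that lead to the members, and genes beside them, were read in 5 lists, whose counts stand against shares of all genes called of 42.2% for LPS, 11.1% for IL-4, 25.6% for IFN-γ and 11.7% for LPS after IFN-γ. Of 12 genes from TLR4 to interferon, LPS raised 8 and lowered 2, IL-4 lowered 4, and IFN-γ raised 6. Ifnb1, interferon beta itself, had group means of -4.31 untreated, 0.48 with LPS, -6.71 with IL-4, 0.78 with IL-4 and LPS, 0.24 with IFN-γ and 2.81 with both. It was well above background on all arrays except the 4 of IL-4 alone, which give only an upper bound, and rose at least 92.1-fold with LPS in IL-4 primed cells (limma adjusted p = 5.76e-10). Its rise with LPS was 4.8 in unprimed cells and its rise with IFN-γ alone 4.56 (adjusted p = 4.74e-09 and 3.06e-06). Irf7, which amplifies interferon production, changed by 1.59 with LPS, -1.46 with IL-4 and 1.73 with IFN-γ, all 3 called. Cd14, which hands LPS to TLR4, fell by 3.06 with IL-4 (adjusted p = 6.46e-12), and Ikbke, a kinase that can activate Irf3, fell by 1.37. Tlr4, Irf3 and Tbk1 changed by -0.06, 0.09 and -0.24 with IL-4, and none passed the test.

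Of 10 genes of type I interferon signalling, LPS raised all 10, IFN-γ raised 7, and IL-4 lowered 5 and raised 1. Among those lowered were Stat2 at -1.24, Ifnar2 at -0.99, Ptpn6 at -0.76 and Irf9 at -0.59. The 1 raised by IL-4 was Socs1, an inhibitor of the Janus kinases. Its group means were 0.49 untreated, 5.56 with IL-4, 6.42 with IFN-γ and 6.15 with LPS, a rise of 5.07 with IL-4 (limma adjusted p = 4.87e-14). After IFN-γ, LPS raised 2 of the 10, Ifnar2 and Tyk2. Stat2 changed there by 0.18, which did not pass the test.

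Of 14 genes of IFN-γ signalling and its targets, IL-4 lowered 8 and raised 2, LPS raised 12 and IFN-γ 13. Gbp2 and Irgm1, GTPases that attack intracellular microbes, fell by 1.02 and 1.43 with IL-4, and Cxcl10, a chemokine for T cells, fell by 4.8. Of 10 tested genes of viral sensing and its adaptors, IL-4 lowered 5 and raised none, and LPS raised 7 and lowered Mavs, the adaptor of Ifih1 and Ddx58, by 1.24. Tlr3, a receptor for double-stranded RNA, fell by 1.58 with IL-4 and rose by 3.2 with LPS. Of 12 genes of IL-4 signalling and its targets, IL-4 raised 9 and lowered 1, and the 9 included Chil3 and Mrc1 at 3.95 and 1.72. LPS raised 4 and lowered 3 of them.

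The likeness among members was described over the 6 group means, which share arrays with every comparison above. Each member's profile correlated with the median profile of the others at 0.881 (Lgals3bp) to 0.999 (Cmpk2), with Trim25 at 0.9 and Eif2ak2 at 0.909 as the next least alike. Outside the members and the lists, among genes whose group means span at least 1, the 10 with the profile most like the members' median included Slfn8, H2-T24, Chit1, Slfn10-ps, Parp12, Mmp14, Trim30d, Slfn9 and Perm1, at correlations of 0.997 to 0.999. Slfn8 had group means of 0.57 untreated, 3.19 with LPS, -1.4 with IL-4, 2.64 with IL-4 and LPS, 1.89 with IFN-γ and 2.94 with both. Mmp14, a membrane-bound protease, had the widest span of the 10, 8.96, from -2.86 with IL-4 to 6.1 with LPS.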

How the data were processed

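RNA was measured on 28 single-colour arrays, and the scanner files the authors deposited hold intensity values made by Agilent Feature Extraction 9.5.1, per the file headers. The deposited table of log2 values was not used, because only 2 of its 28 columns were best matched by the scanner file of the same sample (best correlation at least 0.997). Levels are log2 of the processed signal less log2 of its 75th percentile on the array, with each gene represented by its brightest probe. Outlier spots (56 to 414 per array) were left out where the probe had another spot. Probes with all spots flagged kept their values, 320 of them on untreated array D. Of 41174 probes, 22951 were named through an accession, 6659 through a symbol and 3109 through a synonym. Among the members, 19 had several probes. No probe pair of a member moved in opposite directions with an unadjusted p under 0.05 for both, though signs differed without that, as for Oas2 with IFN-γ (0.15 and -0.4) or Parp14 (0.29 and -0.62) and Rsad2 (0.04 and -0.68) in IFN-γ with LPS against LPS. Genes well above background on 3 or more arrays were tested with limma 3.58.1 (R 4.3.3, data.table version 1.17.8) in 1 model of 6 group means, two-sided, with Benjamini-Hochberg adjustment per comparison, for 11 comparisons, and the procedure was tested on simulated data. There small known changes were often missed, and the aim first set for recovering them was not met and was replaced by limits on bias, false calls and the recovery of large changes, so a small change that was not called is no sign of its absence. The number of arrays limits the precision. Figures used Python and matplotlib.

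Replicates are experiments with pooled cells. Deviations from the group means of same-letter arrays had correlations of 0.149 to 0.719 for IL-4 with and without LPS and 0.274 to 0.624 for IFN-γ. All 3 IFN-γ pairs and IL-4 pairs C and G also share a slide, so there letter and slide cannot be told apart. Between all groups, same-letter pairs had a median of -0.0101 and same-slide pairs 0.433.

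The members and lists were chosen with earlier results of these data known. All members could be named. Values or ranges by array were given for those with the largest and smallest LPS change of each role and 12 others fixed by name, every member called against most or not called was named, and from outside the lists the 10 genes with the most similar profile. Alternatives were the replicate, slide or scan day as a block, other scalings, filters, probe summaries and sets of arrays, and leaving out each array. Leaving out untreated arrays D and E was added after the data were seen. A gene of the lists and 1 of the genes with similar profiles are not reported here.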

Additional observations from a re-analysis of the deposited data

Results flagged for a closer look

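Among 144 sets of arrays examined (36 members in the 4 groups with 4 or more arrays), 10 had an array far from the others by Dixon's criterion at 95%, where chance gives about 1 in 20. LPS array C was low for Mx1 at 5.42, Mx2 at 6.1 and Trim21 at 3.72, and LPS array E was high for Ddx58 at 4.69. IL-4 with LPS array B was low for Mx2 at 5.62 and Trim21 at 2.95, and array G of that group was low for Ifi44 at 2.84. Untreated array E was low for Zbp1 at 4.48 and Lgals3bp at 6.48, and IL-4 array G was low for Parp9 at 1.67.

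The LPS change of the brightest probe differed between IL-4 primed and unprimed cells for 18 members, by limma's interaction term. In each case the rise after IL-4 was the larger. The IFIT genes Ifit1, Ifit2 and Ifit3 stood at 2.7, 2.67 and 2.87. Among the effectors Rsad2 stood at 2.92, Cmpk2 at 2.09, Ifi44 at 1.95, Isg20 at 1.83 and Mx2 at 1.53. Isg15 stood at 2.04 and Usp18 at 1.07, and the OAS genes Oasl1, Oas3 and Oasl2 at 2.03, 1.74 and 1.1. The sensors Zbp1, Ifih1 and Dhx58 stood at 1.34, 1.24 and 1.04, Trim30a at 1.33 and Parp14 at 0.87.

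Between IFN-γ primed and unprimed cells the LPS change differed for 26 members, in each case with the smaller rise after IFN-γ. The IFIT genes Ifit1, Ifit2 and Ifit3 stood at -2.52, -2.59 and -1.78. Among the effectors Cmpk2 stood at -3.23, Isg20 at -2.66, Mx1 at -2.63, Rsad2 at -2.51, Mx2 at -2.27, Ifi44 at -2.18, Ifi35 at -1.62 and Samd9l at -1.56. Usp18, Herc6 and Isg15 stood at -2.49, -2.39 and -2.06, and the OAS genes Oasl1, Oas1g and Oas1a at -2.42, -1.18 and -0.76. The sensors Ifih1, Eif2ak2, Ddx58, Zbp1 and Dhx58 stood at -2.22, -1.94, -1.74, -1.24 and -1.19. Trim21 and Trim30a stood at -1.86 and -1.32, Parp9 at -1.25 and Tor3a at -1.87.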

How the results depend on the processing

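The counts of members called for LPS, for IL-4, for LPS after IL-4 and for IL-4 against IFN-γ stayed within 1.5 times under every alternative run, and the smaller comparisons did not. The causes were not tested. Of the gene values under alternatives, 8395 kept their side of the threshold, 350 lost the call and 146 gained one. A further 1, called in the main fit, reversed, Lgals3bp with LPS at -0.03 under quantile normalization. The 8395 were not held to direction where uncalled, and some of these turned in fitted sign. Examples are Oas2 with IFN-γ at -0.26 under quantile normalization and Ifi44 with LPS after IFN-γ at -0.34 under normexp. In the order LPS after IFN-γ, IL-4 with LPS against LPS, and IFN-γ with LPS against LPS, 12, 8 and 8 members became 19, 13 and 13 with slide as a block, 1, 1 and 5 with normexp, 2, 1 and 2 with median scaling, and 3, 2 and 5 with only the groups compared. The first 2 became 19 and 13 with scan day as a block. LPS after IFN-γ had 5 with quantile normalization, and IL-4 with LPS against LPS had 5 with no filter on dim probes. IL-4 with LPS against IFN-γ with LPS, 7 members, had 1 with normexp and 1 with only the groups compared. The IL-4 interaction, 18 members, had 5 with normexp and 7 with median scaling.

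With the replicate block by experiment letter, IL-4 with LPS against LPS, IFN-γ with LPS against LPS and IL-4 with LPS against IFN-γ with LPS each had 4 members called. No other count moved by over 1.5 times, including LPS after IL-4 (36) and LPS after IFN-γ (10), where same-letter arrays deviated together. With only shared letters, IFN-γ had 20, IL-4 with LPS against LPS 1, the IL-4 interaction 9, the IFN-γ interaction 16, and IFN-γ with LPS against LPS 0 by limma, with 10 at an unadjusted p under 0.05. That alternative was not run between IL-4 and IFN-γ, which share fewer than 2 letters, and the deposited value table was not run.

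Leaving out each array in turn gave 36 to 36 members for LPS, for LPS after IL-4 and for IL-4 against IFN-γ, 31 to 33 for IL-4, 29 to 31 for IFN-γ, 7 to 11 for LPS after IFN-γ, 2 to 12 for IL-4 with LPS against LPS, 3 to 9 for IFN-γ with LPS against LPS, 15 to 19 and 24 to 28 for the IL-4 and IFN-γ interactions, and 4 to 8 for IL-4 with LPS against IFN-γ with LPS. Leaving out untreated arrays D and E, chosen after the data were seen, moved no count by over 1.5 times.

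Over all genes, median scaling moved the share of calls that were higher from 53.1% to 27.6% for IL-4 against IFN-γ, from 54.3% to 25.2% for these with LPS, from 36.5% to 25.5% for the IFN-γ interaction and from 48.9% to 37.6% for IL-4 with LPS against LPS. Normexp moved it to 62.6% for IFN-γ and 18.2% for the IFN-γ interaction. All members were well above background on all 28 arrays, yet normexp turned the fitted sign of 10 uncalled members for LPS after IFN-γ.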
